A study of Mus musculus with 103 samples.

Results

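Transcripts of 8 complement genes, out of 43283 genes with an Ensembl identifier, were followed in mouse muscle stem cells. They were taken by symbol: Serping1, C3, C4b, C1qa, C1qb, C1qc, Cd55 and Cd59a. All 8 were present in both expression tables. Muscle stem cells lie under the basement membrane of muscle fibres and rebuild fibres after injury. The bulk libraries came from untreated C57BL/6 mice, with 3 young (3 months), 2 middle-aged (12 and 13 months) and 3 old (24 months) animals, 1 mouse per library according to the design text. For the young bulk libraries a description gives 2 months where the age field gives 3. Single cells were sequenced in 31 wells of 1 old mouse (24 months) and 64 wells of 1 young mouse (3 months). The labels give no sort gate or surface marker, and do not say whether RNA was taken before or after the culture they describe.

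The complement system is a cascade of secreted proteases and adaptor proteins that tags cells and debris for uptake and can puncture membranes. The classical branch starts when C1q, built from 3 kinds of chain, binds a surface and its partner proteases C1r and C1s are switched on. These cut C4 and C2 to form an enzyme that cleaves C3, the component on which all branches meet. Host cells hold the cascade back with secreted and membrane-bound inhibitors. In injured muscle, complement products help to draw in phagocytes. Macrophages are the usual source of C1q.

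Values are TPM, the share of a library's transcripts that belongs to a gene, corrected for transcript length, so levels of different genes can be set side by side. Read depth cannot be read from TPM. Between 12849 and 17114 genes were at 1 TPM or more per bulk library, and libraries correlated at r = 0.546 to 0.749 across genes, which are not independent replicates. Of the 22492 genes tested, 66.1% were listed at 0 in at least 1 library, so a 0 in 1 library does not show that a gene was silent there. Muscle stem cell markers were all detected, with 11 of 11 above 0 in every bulk library. Because the libraries are bulk, fewer cells of a type and less RNA per cell cannot be told apart.

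The 8 genes fell into 3 levels. Serping1 was abundant, at 267 TPM or more in every bulk library. Cd59a, Cd55, C3 and C4b stayed at 74.0 TPM or less. The 3 C1q chains were at 0 in nearly all libraries. When old libraries (n = 3) were set against young ones (n = 3), Serping1, Cd59a and C4b were higher in every old library than in every young one, while C3 and Cd55 overlapped. For C4b this did not hold after quantile normalization. None of these differences passed the threshold after adjustment over all genes.

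Promoter sequences are shown for the 2 membrane-bound regulators, Cd59a and Cd55, the members with a RefSeq promoter whose levels were above 0 in every bulk library. Each is the stretch of 250 bases before the transcription start in RefSeq (GRCm38.p6), written 5′ to 3′ on the gene's strand, with matches to the motifs searched in capitals. RefSeq entries were found for 5 of the 8 genes (C3, C1qb, C1qc, Cd55 and Cd59a).
Cd59a, chr2:104095551-104095800, plus strand: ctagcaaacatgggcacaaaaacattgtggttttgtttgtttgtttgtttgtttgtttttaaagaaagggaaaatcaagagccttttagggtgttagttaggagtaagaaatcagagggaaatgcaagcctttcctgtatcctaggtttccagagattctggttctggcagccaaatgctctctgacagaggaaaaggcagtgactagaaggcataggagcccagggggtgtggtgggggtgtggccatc
Cd55, chr1:130462745-130462994, minus strand: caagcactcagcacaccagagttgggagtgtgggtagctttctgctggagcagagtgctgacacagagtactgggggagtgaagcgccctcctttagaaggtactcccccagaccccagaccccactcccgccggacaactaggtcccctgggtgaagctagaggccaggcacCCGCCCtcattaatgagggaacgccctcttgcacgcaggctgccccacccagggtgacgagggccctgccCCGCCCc

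The search covered both strands and 4 motifs, over 32851 RefSeq promoter windows of the same length for comparison. The capitals in Cd55 mark 2 matches to the GC box GGGCGG, starting at -77 and -7 from the transcription start, both on the strand opposite to the gene. The GC box occurs in 32.74% of all windows. No match to any of the 4 motifs lay in the Cd59a window, which is therefore in lower case throughout. Neither window held TTCNNNGAA (the pattern bound by STAT factors, in 7.02% of windows), CCAAT (33.85%) or TATAAA (12.37%). A match is a stretch of letters and not evidence that a factor binds there, and a missing match says only that these letters are not in the window.

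Serping1 encodes the C1 inhibitor, a secreted serpin that inactivates C1r and C1s and also proteases of the lectin and contact pathways. The gene lies on chromosome 2 (84765387 to 84775444, minus strand, mm10), and 0 other annotated genes overlap it. Young libraries 1 to 3 held 429, 337 and 267 TPM, the middle-aged pair held 517 and 328 TPM, and old libraries 1 to 3 held 629, 539.7 and 796 TPM. Every old library was above every library of the other ages, and the middle-aged pair straddled the highest young value. Old libraries averaged 655 ± 130.0 TPM and young libraries 344 ± 81.5 TPM (SD, n = 3 each). The log2 difference of TPM + 1, old minus young, was 0.93 (SE 0.30, 95% interval 0.27 to 1.60, 1.91-fold). By limma, unadjusted p was 0.0108 and p adjusted over all genes was 0.728. An exact two-sided permutation test over the 20 possible assignments of these libraries gave p = 0.1, the smallest it can give.

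Among all genes, Serping1 ranked between 149 and 256 from the top in young libraries, between 132 and 173 in middle-aged ones and between 71 and 112 in old ones. The middle-aged libraries differed from young ones by 0.28 log2 units (SE 0.34, adjusted p = 0.800 by limma), and old ones from middle-aged ones by 0.65 (SE 0.34, adjusted p = 0.724). With middle-aged library 1 left out, the middle-aged minus young difference was -0.04.

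**Figure D1:**
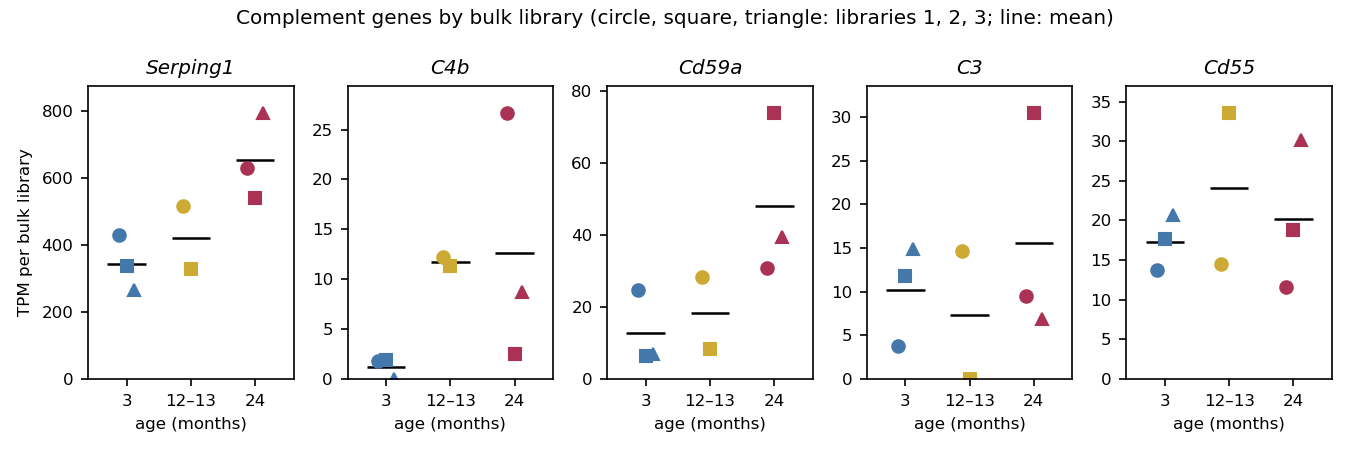
TPM (vertical axes from 0, each with its own scale) of the 5 complement genes averaging 5 TPM or more, in each bulk library, by age in months. Points are libraries and lines are group means; the 3 old libraries of Serping1 sit between 539.7 and 796 TPM, above all others, while C3 and Cd55 overlap between ages.

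Cd59a and Cd55 encode proteins tethered to the membrane by a lipid anchor. CD59 blocks the membrane attack complex, and CD55 speeds the decay of the enzymes that cleave C3. Cd59a (chromosome 2, 104095801 to 104115354, plus strand) had 24.6, 6.41 and 7.01 TPM at the young age, 28.3 and 8.38 TPM at middle age, and 30.7, 74.0 and 39.4 TPM at the old age. Young library 1 and middle-aged library 1 came close to the lowest old value, and the other young and middle-aged libraries were well below it. Means were 48.03 ± 22.9 TPM in old and 12.7 ± 10.4 TPM in young libraries (SD, n = 3 each). The log2 difference was 1.99 (SE 0.66, 95% interval 0.52 to 3.46; limma, unadjusted p = 0.0126, adjusted p = 0.728; exact permutation p = 0.1). Old libraries also lay above both middle-aged ones, by 1.47 log2 units (SE 0.74, adjusted p = 0.724), a value that was 0.64 without middle-aged library 2 or 2.29 without middle-aged library 1.

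Cd59b, a close copy of Cd59a next to it on the chromosome, was at 0 in the young and middle-aged libraries and at 6.24, 0 and 33.6 TPM in the old ones. Short reads may be split between such copies. Their sum was 37.0, 74.0 and 73.0 TPM in old libraries against 24.6, 6.41 and 7.01 TPM in young ones, so the order of the groups was the same for the sum.

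Cd55 (chromosome 1, 130439027 to 130462744, minus strand) stood at 13.7, 17.6 and 20.6 TPM at 3 months, at 14.5 and 33.6 TPM at 12 to 13 months, and at 11.7, 18.8 and 30.2 TPM at 24 months. The lowest and the highest of these 8 values were an old and a middle-aged library, and all groups overlapped. Old libraries averaged 20.2 ± 9.32 TPM and young libraries 17.3 ± 3.46 TPM. The log2 difference was 0.13 (SE 0.54, limma adjusted p = 1), and its 95% interval of -1.05 to 1.32 spans 0 and more than 1 log2 unit to either side. Without young library 1 or old library 3 it was -0.02 or -0.19. An antisense gene, Gm16083, overlaps Cd55, and whether counting used strand is not given in the sources used here, so reads of the pair cannot be told apart.

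C4b and C3 encode components of the cascade itself. C4 is cut by C1s and forms part of the enzyme that cleaves C3, and C3 fragments coat targets and attract phagocytes. C4b (chromosome 17, 34728380 to 34743882, minus strand) stood at 1.79, 1.88 and 0 TPM at 3 months, at 12.2 and 11.3 TPM at 12 to 13 months, and at 26.7, 2.51 and 8.71 TPM at 24 months. All 5 libraries of the later ages exceeded the 3 young ones, although old library 2 did so by less than 1 TPM. The log2 difference was 2.29 for old minus young (SE 0.90, 95% interval 0.30 to 4.29; limma, unadjusted p = 0.0281, adjusted p = 0.808; exact permutation p = 0.1). For middle-aged minus young it was 2.67 (SE 1.01, adjusted p = 0.538), with the same young libraries in both. After quantile normalization old library 2 lay below young library 2, so the C4b groups then overlapped. The old minus young value was 1.54 without old library 1 and 3.03 without old library 2.

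The near-identical copy C4a had 6.21, 0 and 0 TPM at 3 months, 9.44 and 0 TPM at 12 to 13 months, and 0, 15.99 and 0 TPM at 24 months. Old library 2, low for C4b, was the highest of the 8 for C4a. The sum of both copies was 26.7, 18.5 and 8.71 TPM in old libraries against 8, 1.88 and 0 TPM in young ones. The groups of the sum did not overlap either.

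C3 (chromosome 17, 57203970 to 57228136, minus strand) had 3.75, 11.8 and 14.9 TPM at 3 months, 14.7 and 0 TPM at 12 to 13 months, and 9.48, 30.5 and 6.90 TPM at 24 months. Old library 2 was the highest, and the other old libraries lay within the young range. The log2 difference was 0.48 (SE 1.03, 95% interval -1.81 to 2.76, limma adjusted p = 0.965), and it was -0.12 without old library 2 and -0.05 without young library 1.

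C1qa, C1qb and C1qc encode the chains of C1q and lie side by side on chromosome 4 (136880129 to 136898803). C1qa was at 0 in all 8 bulk libraries. C1qb was at 4.25 TPM in old library 1 and at 0 in the other 7, and C1qc at 9.27 TPM in middle-aged library 1 and at 0 in the other 7. No library held more than 1 of the 3 chains. C1qa and C1qb fell short of a mean of 1 TPM and were not tested, and C1qc passed it through that single library. Of 16 macrophage markers, 3 to 6 were above 0 in young libraries, 6 to 11 in middle-aged ones and 6 to 8 in old ones, and Tyrobp was at 0 in all 8. The macrophage marker Lyz2 ran from 4.88 to 21.45 TPM in young, 58.2 to 78.7 TPM in middle-aged and 4.78 to 52.2 TPM in old libraries. Ptprc lay the other way, with means of 13.96, 4.52 and 5.35 TPM at these ages. Of the 10 macrophage markers tested, 1 (Csf1r) did not overlap between old and young, upward (10%, against 5.85% of all genes). Csf1r was at 0 in every young library and at 0.58 to 1.05 TPM in old ones.

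Across the 8 genes, 3 had old and young libraries that did not overlap, all 3 higher in old. Of all 22492 genes tested, 5.85% did so upward and 4.16% downward. The unadjusted p of limma was under 0.05 for the same 3 genes, against 3.72% of all genes upward and 2.17% downward. After adjustment over all genes, 0 of the 22492 genes (0%) passed in old against young. For middle-aged against young it was 1 gene (0.00445%), none of these 8, and for old against middle-aged it was 0 (0%). Between old and middle-aged libraries, 2 of the 8 (Serping1 and Cd59a) did not overlap, upward, against 7.15% of all genes. In middle-aged against young that held for C4b, against 12.6%. The genes were chosen with earlier results of these data known, so these counts describe them and are no independent evidence.

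The other genes of the cascade were taken from a wider list, of which 49 were found, 36 were tested and 6 were at 0 in all 8 libraries. In old against young, 20 were higher and 15 lower, with a median log2 difference of 0.10. Over all genes tested, 49.6% were higher and the median was 0. By limma 0 passed over all genes, and 0 had an unadjusted p under 0.05. Groups did not overlap for 5 genes upward and 2 downward, which is 13.9% and 5.56% of the 36 tested, against 5.85% and 4.16% of all genes. Of the 5, C1rl, Cfp, C5ar1 and Itgb2 were at 0 in every young library, and their lowest old values were 1, 1.95, 1.68 and 1.07 TPM. C1s1 ran from 46.1 to 67.2 TPM in old and 30.7 to 38.7 TPM in young libraries. Downward, Colec10 was at 0 in every old library and at 1.05 to 4.42 TPM in young ones. For C1ra the highest old value was 8.11 TPM and the lowest young value 8.25 TPM.

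The proteases that Serping1 inhibits were measured in the same libraries. C1s1, which encodes C1s, averaged 58.4 ± 10.99 TPM in old and 34.8 ± 4 TPM in young libraries, and no old library overlapped a young one (log2 difference 0.72, SE 0.39; limma adjusted p = 0.839). C1ra, which encodes C1r, lay the other way, at 5.27 ± 4.57 TPM in old and 10.4 ± 3.15 TPM in young libraries (log2 difference -1.38, SE 0.86, adjusted p = 0.839). Old libraries were also below the middle-aged ones for C1ra, at 0, 8.11 and 7.71 TPM against 24.99 and 19.7 TPM. Both genes have close copies, C1s2 and C1rb, at 6.89 TPM or less in every library. C1rb reached 6.89 TPM in an old and 5.54 TPM in a young library, not far below the highest old C1ra value of 8.11 TPM. Whether the order of the groups holds for the sum of C1ra and C1rb was not examined. C2, the partner of C4 in the enzyme that cleaves C3, was uneven, at 24.1, 3.66 and 12.7 TPM in old and 7.90, 5.49 and 3.00 TPM in young libraries.

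Among the other regulators of the wider list, levels differed widely. C4bp, which binds C4b and hastens the decay of its enzyme, averaged 4.18 ± 2.84 TPM in old and 6.52 ± 5.37 TPM in young libraries. The rodent membrane inhibitor Cr1l, known as Crry, averaged 39.9 ± 19.9 and 55.4 ± 11.3 TPM in old and young libraries (log2 difference -0.55, SE 0.43, adjusted p = 0.839). Vtn, which binds the terminal complex and also the matrix, had 60.1 ± 28.8 TPM in old and 32.8 ± 17.6 TPM in young libraries. Thbd averaged 23.6 and 22.2 TPM in old and young libraries, and Csmd1 7.24 and 8.29 TPM. Cd46 averaged 4.73 ± 2.71 and 10.9 ± 13.9 TPM in old and young, and Clu 3.89 ± 3.89 and 9.59 ± 8.30 TPM. The lectin Colec12 averaged 33.5 and 26.3 TPM. C1qbp, a mainly mitochondrial protein named for binding C1q, was near 50 TPM at both ages (48.7 ± 17.7 and 52.1 ± 16.9 TPM in old and young). Genes of the membrane attack complex were scattered: C7, C8a, C8b, C8g and C9 were each at 0 in at least 5 of 8 libraries. C6 was found in all 3 old (1.2 to 2.43 TPM) and all 3 young libraries (1.72 to 3.61 TPM) and was at 0 in both middle-aged ones. Hc, the gene of C5, was found in young library 2 alone, at 55.6 TPM. Cfd was at 0 in all 8.

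**Figure D2:**
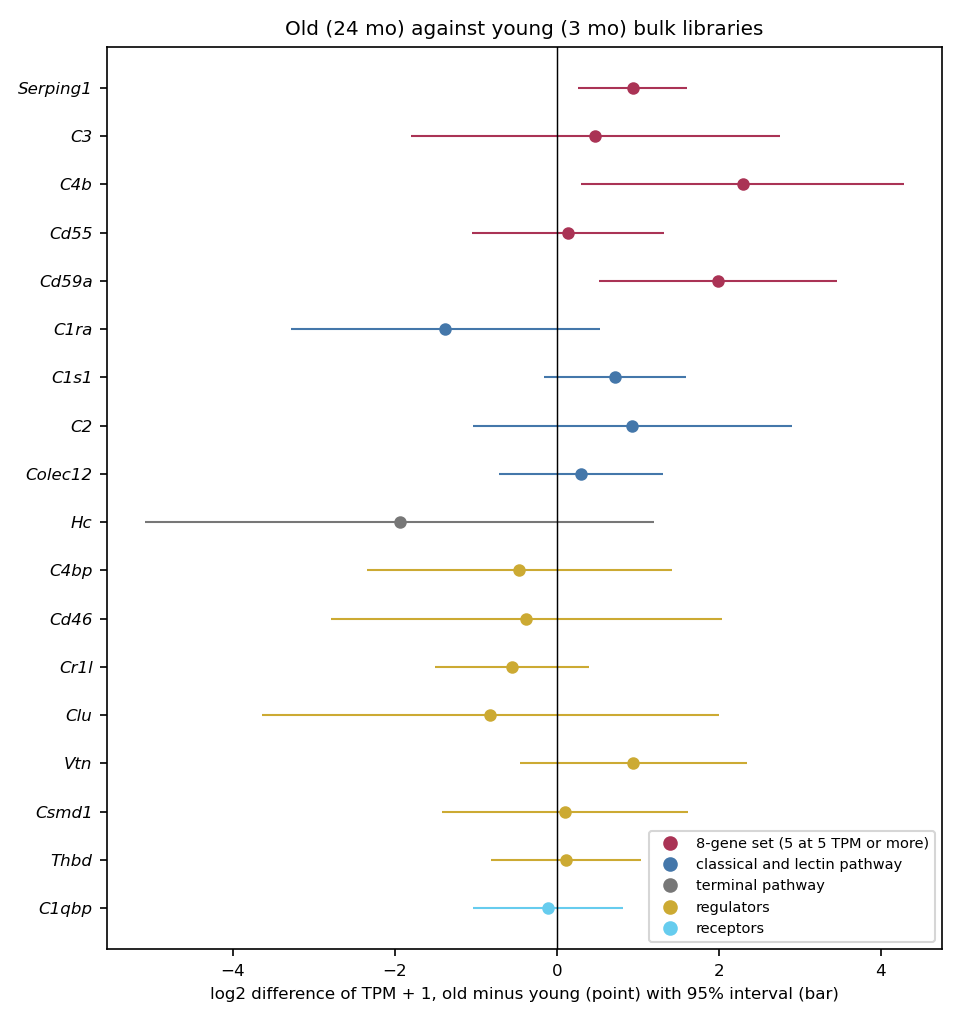
Log2 difference of TPM + 1 between old and young bulk libraries (points; horizontal axis) with its 95% interval (bars) for complement genes averaging 5 TPM or more, coloured by role. Serping1, C4b and Cd59a, at 0.93, 2.29 and 1.99, have intervals above 0, while none passed after adjustment over all genes.

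Several cell types besides muscle stem cells make complement proteins, so summed TPM of marker lists were set beside the complement genes. The sum of 14 fibroblast markers was 1023 to 1536 TPM in old and 939 to 1195 TPM in young libraries, and the groups overlapped. Single fibroblast markers differed from their sum. Of 12 tested, 4 (Dcn, Col1a2, Mfap5 and Smoc2) were higher in every old library than in every young one and 1 (Col3a1) was lower. These are 33.3% and 8.33% of the 12, against 5.85% and 4.16% of all genes tested. Ly6a was at 0 in every old library and ran from 0 to 152 TPM in young ones, so its groups overlapped. Its log2 difference was -4.48 (SE 1.55; limma, unadjusted p = 0.0151, adjusted p = 0.738). Dcn ran from 419 to 923 TPM in old and from 236 to 329.7 TPM in young libraries (log2 difference 1.12, SE 0.32; limma, unadjusted p = 0.00576, adjusted p = 0.638). Sums for Schwann cells (8 genes) were 417 to 1318 TPM in old and 84.7 to 155 TPM in young libraries. The tenocyte sums (6 genes) were 68.7 to 88.0 TPM and 15.2 to 29.1 TPM in old and young libraries. Of these tenocyte markers, 2 (Thbs4 and Fmod) were higher in every old library than in every young one, which is 33.3%, against 5.85% of all genes tested. Scx, Tnmd, Mkx and Kera overlapped, and Mkx averaged 4.19 TPM in old and 5.03 TPM in young libraries. Muscle stem cell markers (11 genes) summed to 1430 to 2163 TPM in old and 2219 to 2642 TPM in young libraries. Much of that gap was Chodl, which averaged 491 ± 139 TPM in old and 906 ± 207 TPM in young libraries, and Pax7 was also lower in every old library. Sdc4 lay the other way, at 358 ± 16.5 TPM in old and 271 ± 55.96 TPM in young libraries. Thus the Schwann cell, tenocyte and muscle stem cell sums separated the ages as Serping1, Cd59a and C4b did, the last of them downward. Macrophage sums (16 genes) were 34.99 to 66.9 TPM in old and 46.4 to 49.3 TPM in young libraries, endothelial sums (8 genes) 44.1 to 72.5 and 33.01 to 48.4 TPM, and lymphocyte sums (6 genes) 6.44 to 13.9 and 0 to 26.99 TPM. The fibroblast marker Pi16, the endothelial marker Cldn5 and the lymphocyte marker Nkg7 were at 0 in all 8 libraries. The part of these cells in the differences was not tested.

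**Figure D3:**
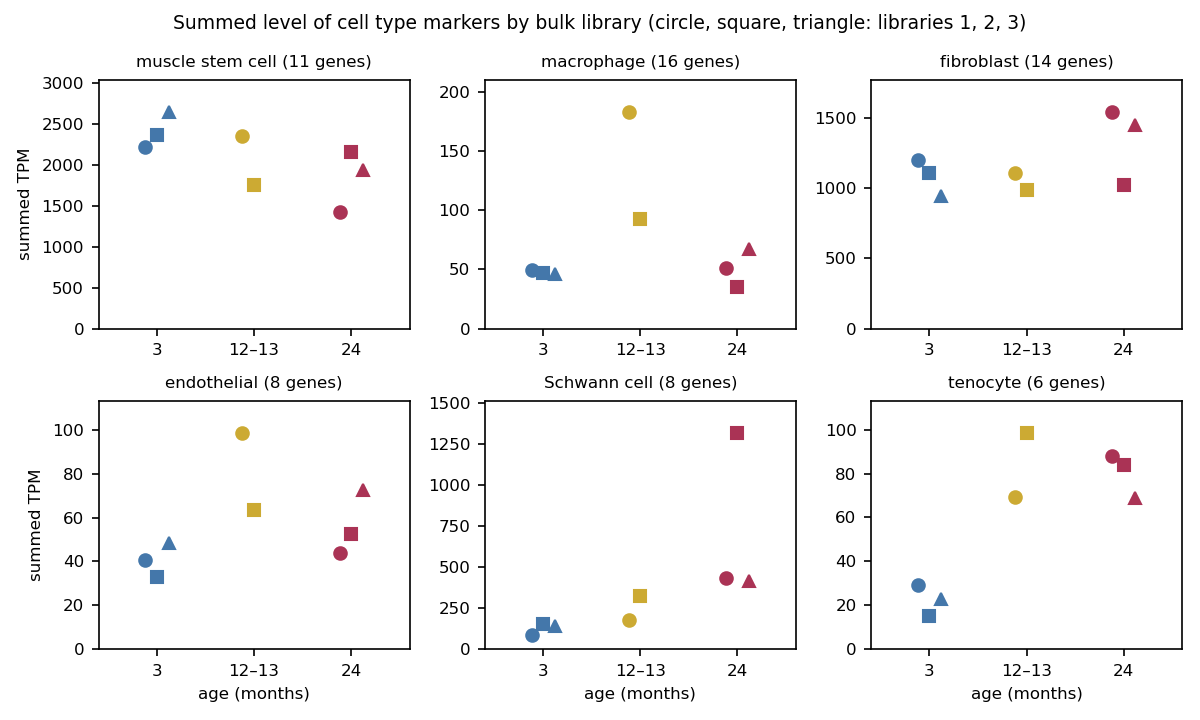
Summed TPM (vertical axes from 0) of 6 marker lists in each bulk library, by age in months; points are libraries. Schwann cell and tenocyte sums are higher in all 3 old libraries than in all 3 young ones, macrophage sums overlap between these ages, and middle-aged library 1 has the highest macrophage sum.

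Like patterns were sought among 3881 genes averaging 20 TPM or more, with values above 0 in all 8 libraries, by Pearson's r of log2(TPM + 1) over the 8 libraries, as a description. For Serping1 the closest were Ilk (r = 0.97), Sorbs3 (0.94) and Aldoa (0.94), with a median of 0.06 over all genes compared. Ilk, an integrin-linked adapter kinase, had 82.8, 83.1 and 128 TPM in old and 60.8, 40.6 and 32.2 TPM in young libraries. Cd59a was followed most closely by Sbsn (0.95), Cp (0.94) and Trim41 (0.94), and C4b by Arid5b (0.94), Cstb (0.91) and Mgp (0.91). Closest to Cd55 were the endoplasmic reticulum chaperones Canx (0.98) and Hsp90b1 (0.90), then Dpy19l3 (0.88). C3 was nearest to Serinc5 (0.97), Golga7 (0.95) and Ncoa6 (0.94). These values of r are the highest of 3881, over 8 libraries, and carry no p.

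Single wells showed which of the genes were found in individual cells. Serping1 was at 1 TPM or more in 4 of 31 wells of the old mouse (12.9%, exact Clopper-Pearson 95% interval 3.63 to 29.8%) and in 52 of 64 wells of the young mouse (81.2%, interval 69.5 to 89.9%). The wells differed in quality, with a median of 64 genes per well in the old and 1854 genes in the young mouse. Only 7 old and 54 young wells had at least 1000 genes. Among these, Serping1 was found in 4 of 7 old wells (57.1%, interval 18.4 to 90.1%) and in 51 of 54 young wells (94.4%, interval 84.6 to 98.8%). Each age was 1 mouse, so no test between ages was made, and intervals cover counting error between wells only.

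Levels of Serping1 in wells that held it ran from 2.35 to 745 TPM in the old mouse (median 326 TPM) and from 5.47 to 1144 TPM in the young mouse (median 257 TPM). Over all 64 young wells the mean was 283 TPM, and the 3 young bulk libraries averaged 344 TPM. By mean level Serping1 ranked 177 among the 13327 genes found in any young well.

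**Figure D4:**
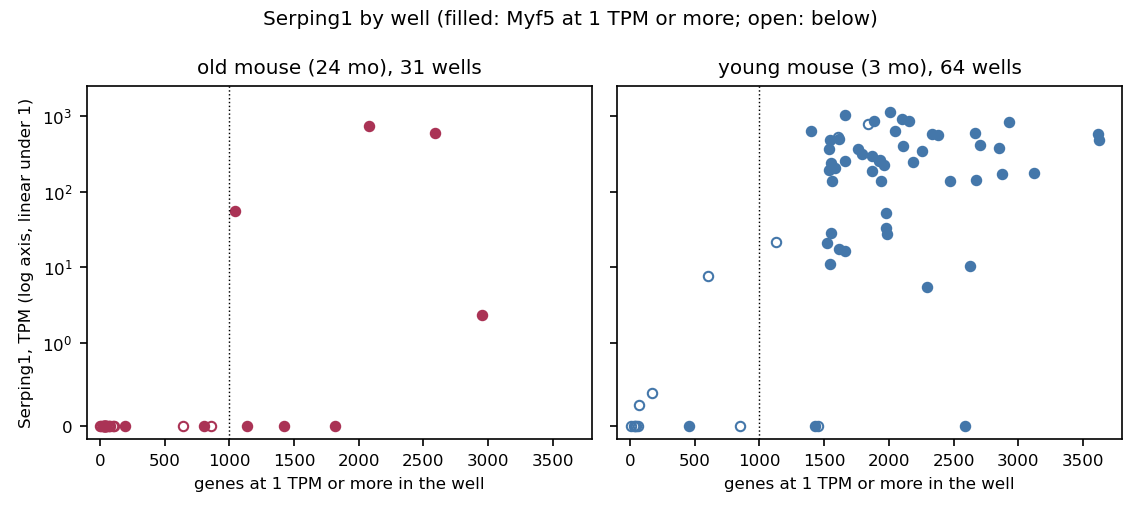
Serping1 TPM (vertical log axis, linear under 1) against the number of genes at 1 TPM or more (horizontal axis) in each well of the old mouse (left) and the young mouse (right); filled points hold Myf5 and the dotted line marks 1000 genes. Wells without Serping1 are mostly those with few genes: 0 of 24 old and 1 of 10 young wells under 1000 genes held it at 1 TPM.

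Wells with Serping1 mostly carried muscle stem cell transcripts. In the young mouse, 48 of the 52 wells with Serping1 also held the myogenic factor Myf5 and 37 held Pax7, the transcription factor that marks these cells. All 4 such wells of the old mouse held both. Among young wells with at least 1000 genes, Myf5 was in 48 of 51 with Serping1 and 2 of 3 without it. In the old mouse these counts were 4 of 4 and 3 of 3. The widely expressed gene Gapdh was in 49 of the 52 young wells with Serping1 and 3 of the 12 without it. Finding Serping1 and Myf5 together therefore cannot be told apart from the quality of the well. Pdgfra, which marks fibro-adipogenic cells, was in 0 of 31 old and 0 of 64 young wells. Counting only wells with at least 1000 genes, 0 of 7 old wells allows a share of up to 42.9% (3 wells of the total) and 0 of 54 young wells up to 5.56%. The matrix gene Dcn, used above as a fibroblast marker, was in 2 of the 4 old and 19 of the 52 young wells with Serping1. It was in 0 of the 27 old and 3 of the 12 young wells without Serping1. Among young wells with at least 1000 genes, Dcn was in 18 of 51 with Serping1 and 1 of 3 without it. In the old mouse these counts were 2 of 4 and 0 of 3. Any of the 16 macrophage markers was found in 0 of the 4 old and 2 of the 52 young wells with Serping1, and 2 markers together in 0 wells of either mouse.

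Of the other genes, Cd55 was found in 3 young wells (2.18 to 38.5 TPM) and 0 old wells, and Cd59a in 1 young well at 201 TPM and 0 old wells. C3, C4b, C1qa, C1qb and C1qc were in 0 of 31 old and 0 of 64 young wells, with the same limits as Pdgfra. For all of these genes the limits are on wells in which a transcript was found, not on cells that express it. Among other genes of the cascade, Vtn was found in 2 of 31 old and 15 of 64 young wells, C1qbp in 1 and 17, Cr1l in 2 and 16, and C1s1 in 0 and 4.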

How the data were processed

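Both tables hold TPM as deposited by the authors. Per the submitters' processing notes the aligner was STAR and the build mm10; for its version, the annotation, strandedness and the tool behind the TPM, nothing is given in the sources used here. Per the labels' protocols, bulk RNA was amplified with a NuGEN kit before library making, a step that can add noise for low genes. Bulk columns were matched to samples by the description field and wells by title.

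The bulk table held 45798 entries, of which 43283 with an Ensembl ID were used. The tests used limma 3.58.1 (R 4.3.3) on log2(TPM + 1), with all 8 bulk libraries in 1 fit, a mean per age and an intensity trend. The 22492 genes averaging 1 TPM or more were tested, two-sided, with Benjamini-Hochberg adjustment over all of them and a threshold of 0.05. Fold changes on this scale understate low genes. P-values measure the spread between single libraries of separate mice. On simulated data for old against young over 22492 genes, 36.8% of genes changed by 3 log2 units were called, 0.2% at 2 units and 0% at 1 unit. The changed genes, 200 in each of 5 runs, were drawn from genes at about 5 TPM or more, so these shares do not cover lower genes. The simulated noise was normally distributed. At 3 units, 24 further calls over the 5 runs were false. Positions come from GENCODE vM21 (mm10). Replicate numbers were not treated as pairs.

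The genes, lists and tests were chosen with earlier results of these data known. Named genes were the 8 genes, pathway genes averaging 5 TPM or more and the 3 genes most like each. Cfd, C6, C7, C8a, C8b, C8g, C9, C4a, Cd59b, C1s2 and C1rb were named after their values were seen. So were C1rl, Cfp, C5ar1, Itgb2, Colec10, Vsig4, Gapdh and single marker genes. One gene of the wider list is not reported here and is left out of its counts. Wells were described only, with a threshold of 1 TPM (Python 3.11.15, scipy 1.17.1).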

Additional observations from a re-analysis of the deposited data

How the results depend on the processing

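Alternatives covered the pseudocount, filters, scaling, the variance trend, the samples fitted, a replicate block, each library left out and, added after seeing the data, C4a and Cd59b summed with C4b and Cd59a. In all 18 alternatives the old minus young difference stayed positive for Serping1 (0.76 to 1.11), Cd59a (1.64 to 2.57) and C4b (1.27 to 3.56), and no adjusted p of the 5 genes passed. Every old value of Serping1, Cd59a and C4b lay above every young one, so most alternatives could not turn the sign. That holds for a left-out library, the pseudocount, filters, the trend, the samples fitted and the block. Only rescaling or, for C4b and Cd59a, the summed copies could have done so. The count of genes whose old and young groups do not overlap, 3 as reported, was 2 with quantile normalization, where C4b overlapped, and 3 wherever else it was recomputed. These other settings were the values without mitochondrial RNA, each library left out and the summed copies. Leaving out a library cannot lower this count. With 1 library left out, the old minus young difference ran from -0.12 to 0.88 for C3 and from -0.19 to 0.46 for Cd55. For middle-aged minus young it ran from -0.04 to 0.61 for Serping1, -0.29 to 1.35 for Cd59a, -3.31 to 0.67 for C3 and -0.22 to 0.93 for Cd55. Old minus middle-aged ran from -0.19 to 3.78 for C3, -0.80 to 0.36 for Cd55 and -1.13 to 0.36 for C4b, where the sum with C4a gave 0.06; the cause was not tested.

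Genes called in middle-aged against young (1 as reported) were 7 with a pseudocount of 0.1, 0 with 5, 0 with no filter, 2 with a mean of at least 5 TPM, 0 without mitochondrial RNA, 5 with quantile normalization, 12 without the trend, 0 with only the 2 groups and 0 with the replicate block. Without 1 library they were 0 to 884. Old against middle-aged gave 6 with a pseudocount of 0.1, 1 with quantile normalization and 0 to 799 without 1 library. The high counts, 599 and 557 without middle-aged library 1 and 884 and 799 without middle-aged library 2, came from fits with a lone middle-aged library that is assumed to vary like the other groups. Pathway genes higher in old at unadjusted p under 0.05 (0 as reported) were 4 with a pseudocount of 0.1, 1 with no filter, 3 without mitochondrial RNA, 1 with quantile normalization, 4 without the trend, 4 with the 2 groups only and 0 to 4 without 1 library. The share of wells with Serping1 was 57.14% in the old and 94.44% in the young mouse among wells with at least 1000 genes. Same-numbered libraries deviated together at r = -0.0121 to 0.0049, so the numbers do not pair them, and the block changed no call of the 8 genes. Without depth in TPM, no counting error can be given for bulk values.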

Other observations

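Middle-aged library 1 held the most macrophage marker RNA of the 8 bulk libraries, with a sum of 183 TPM over 16 markers (11 above 0), against 92.9 TPM in middle-aged library 2, 34.99 to 66.9 TPM in old and 46.4 to 49.3 TPM in young libraries. Its endothelial sum (98.6 TPM) and lymphocyte sum (63.2 TPM) were also the highest of the 8. Of its macrophage markers, Cd14, Fcer1g, Tyrobp, Cx3cr1 and Spi1 were at 0. Middle-aged library 1 was the sole library with C1qc (9.27 TPM). It also had the highest C2 (31.6 TPM), Vtn (130.0 TPM), Clu (28.3 TPM) and Vsig4 (11.4 TPM), the last a complement receptor of tissue macrophages. Middle-aged library 2 had 3.58, 35.8, 3.88 and 0 TPM of these 4 genes. C3 and C4b of middle-aged library 1 (14.7 and 12.2 TPM) lay within the range of the old libraries, and its Cd59a (28.3 TPM) lay below it. That C3 value also lay within the young range (3.75 to 14.9 TPM), and C4b of middle-aged library 2 (11.3 TPM) also lay within the old range. These genes were picked after their values were seen, and the part of macrophages or other cells in them was not tested.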
